A study of Mus musculus with 12 samples.

Results

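Collagens are the structural proteins of the extracellular matrix, and each molecule is a triple helix of chains encoded by separate genes. In skin, fibroblasts of the dermis make most of the fibrillar collagens, which bear tension, while keratinocytes and dermal cells both add chains to the basement membrane under the epidermis. Healing wounds first fill with a provisional matrix, and new collagen is laid down as keratinocytes migrate over it. The genes described here are all genes of the count table whose symbol has the form of a collagen chain (Col, a number, a and a number), with the hemidesmosome collagen Col17a1 left out, and with at least 1 CPM (the share of a library's counts, scaled to a common total) in at least 3 libraries. This gave 28 genes of 43 with such a symbol, among 55315 symbols in all, and the other 15 fell below the level rule. By the structure of the proteins, 8 are fibrillar, 5 belong to type IV of basement membranes, 4 to the microfibrillar type VI, 5 to the fibril-associated collagens (FACIT) and 6 to other types. The fibrillar gene Col27a1 was the last one inside the rule, with 1.12 CPM in its third-highest library, and Col2a1 the nearest outside it with 0.766 CPM.

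The cells came from mouse skin on day 3 after wounding, from a ring of 0.25 mm beside the wound, and were sorted alive as Epcam-positive, integrin alpha6-positive keratinocytes without CD45, CD31 or CD117. Integrin alpha5 (A5) divided them into A5-positive cells, assigned by the labels to the migrating tongue, and A5-negative cells, assigned to the wound edge. The groups were A5-positive and A5-negative cells of RORγt-deficient mice, titled GFP-KI, and A5-positive and A5-negative cells of wild-type mice. RORγt is a transcription factor that lymphocytes need to make the cytokine IL-17. Each group pooled 2 or 3 mice per sequencing run, and strain and age are not stated in the labels used here. Each group had 3 libraries numbered 1 to 3, the p-values measure the spread between such pools, and the counts per library ran from 29259516 to 74474252.

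The sort markers and 1 unusual library bear on all that follows. Itga5, the gene of integrin alpha5, had 107, 122 and 137 CPM in RORγt-deficient A5-positive cells against 54.0, 61.3 and 47.4 CPM in A5-negative cells, and 85.1, 101 and 97.2 CPM in wild-type A5-positive cells against 52.0, 42.2 and 46.3 CPM in A5-negative cells. Epcam and Itga6, the other sort genes, were present in all 12 libraries at 344 to 1000 and 525 to 1070 CPM. Epcam had 344, 550 and 667 CPM in wild-type A5-positive against 645, 766 and 828 CPM in A5-negative cells. That log2 fold change was -0.52 ± 0.24 (SE, edgeR, adjusted p = 0.247), and -0.56 ± 0.14 with the library number as a block (adjusted p = 0.0262). In RORγt-deficient mice it was -0.18 ± 0.24 (adjusted p = 0.692). The summed CPM of 9 keratinocyte markers lay between 31800 and 78000 in the 12 libraries. With that block 3 of them were higher and 2 lower in wild-type A5-positive cells at an adjusted p under 0.05 (8.76% and 5.59% of all genes tested). In RORγt-deficient mice 1 was higher and 1 lower (10.1% and 7.54%). Without the block none passed in either genotype. Library 1 of the RORγt-deficient A5-negative cells stood apart from the other 2 of its group in fibrillar collagen RNA, and several A5 changes are given with and without it.

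Collagen RNA was far more abundant in A5-positive than in A5-negative cells of both genotypes, and most of the difference lay in fibrillar and type VI genes. The 28 genes together had 15600, 10500 and 17000 CPM of the total counts in RORγt-deficient A5-positive libraries 1 to 3, against 1610, 883 and 697 CPM in the A5-negative ones. In wild-type mice they had 4830, 7250 and 8910 CPM in A5-positive libraries against 869, 1040 and 837 CPM in A5-negative ones. No A5-positive library overlapped an A5-negative one. Fibrillar genes made up 80.8% to 87.7% of the collagen counts in RORγt-deficient and 70.1% to 83.5% in wild-type A5-positive cells, and only 6.17% to 32.5% in RORγt-deficient and 7.36% to 28.1% in wild-type A5-negative cells. In A5-negative cells the 6 genes of other types, above all Col18a1, Col7a1 and Col23a1, held the largest share in every library, 35.5% to 50% in RORγt-deficient and 41.0% to 57.0% in wild-type mice.

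**Figure D1:**
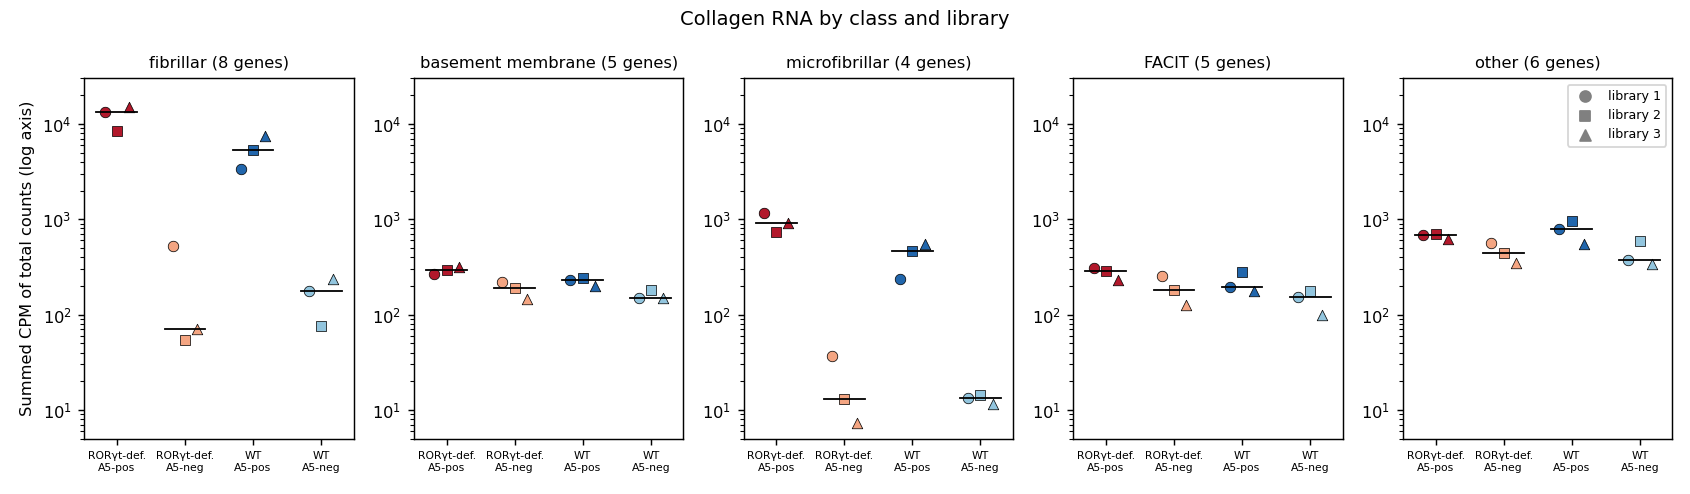
Summed CPM of the total counts (log axis) of each collagen class in every library; circles, squares and triangles are libraries 1, 2 and 3, and the bar is the group median. Fibrillar collagens reached 8480 CPM or more in every RORγt-deficient A5-positive library. Basement membrane collagens lay between 146 and 314 CPM in all 12 libraries and were higher in the A5-positive libraries of each genotype.

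A gene is called here where edgeR's quasi-likelihood test gave a Benjamini-Hochberg adjusted p under 0.05 over all 16677 genes tested. All 28 collagens were among the genes tested. In RORγt-deficient mice 12 collagens were higher and 1 was lower in A5-positive than in A5-negative cells, 46.4% of the collagens against 5.52% of all genes tested (4.56% higher and 0.965% lower). The lower gene, Col20a1, passed the level rule only through the RORγt-deficient A5-negative libraries, so its part of the count follows from how it was chosen. In wild-type mice 11 were higher and none was lower, 39.3% against 3.45% of all genes (3.12% higher and 0.33% lower). With the library number as a block, 16 were higher and 1 lower in RORγt-deficient mice (17.6% of all genes called, 10.1% higher and 7.54% lower) and 15 higher and none lower in wild-type mice (14.4% of all genes, 8.76% higher and 5.59% lower). The median log2 fold change of the 28 genes was 1.05 in RORγt-deficient and 1.18 in wild-type mice, against 0.00 and 0.03 over all genes tested. The groups did not overlap for 18 higher and 2 lower collagens in RORγt-deficient mice (14.3% and 11.3% of all genes) and for 15 higher and no lower collagens in wild-type mice (15.9% and 9.12%). The counts with the block and those of groups apart include Col6a6 in both genotypes. Col6a6 passed the level rule only through A5-positive libraries, so its part of these counts also follows from how it was chosen. Col5a3, Col14a1 and Col15a1 reached 1 CPM in fewer than 3 A5-negative libraries, so they too met the rule only with A5-positive ones. All of them are in these counts, and Col15a1 is also among the 12 called without the block in RORγt-deficient mice. Their parts of the counts follow in part from that choice. Without the unusual A5-negative library 1, Col18a1 and Col20a1 were no longer called in RORγt-deficient mice and Col5a3 became called.

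**Figure D2:**
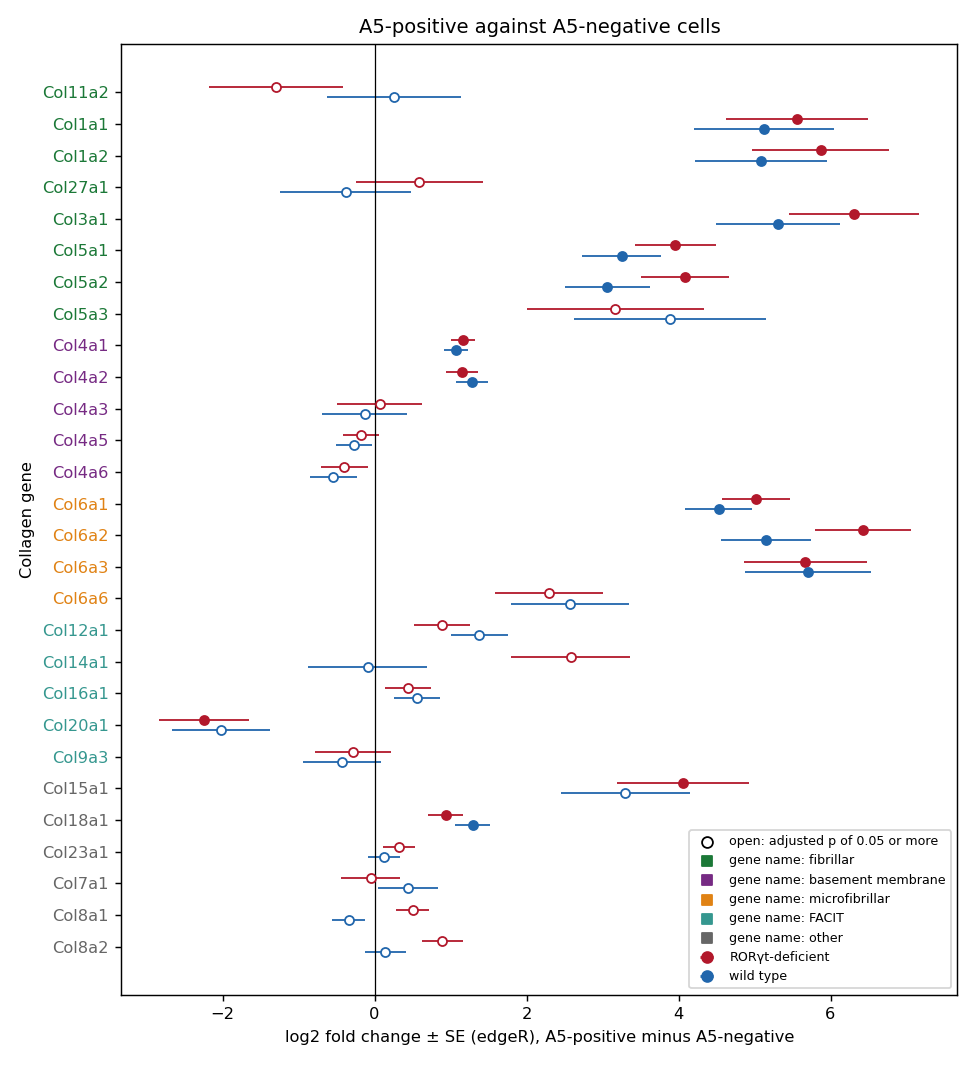
Log2 fold change ± SE of each of the 28 collagen genes between A5-positive and A5-negative cells in RORγt-deficient (red) and wild-type (blue) mice; filled points have an adjusted p under 0.05 (edgeR). Fibrillar and type VI genes reach changes of 3.06 to 6.43 where called, the called type IV genes and Col18a1 lie between 0.94 and 1.29, and Col20a1 is below 0.

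The table of RefSeq promoters (GRCm38.p6) held 22 of the 28 genes. The 250 bases before the start of transcription are shown for 4 of them, chosen because they stand for the main patterns: Col3a1 and Col6a3 for the large fibrillar and type VI differences, and Col4a6 and Col7a1 for genes without a called difference. Capitals mark a TATA box (TATAAA), a GC box (GGGCGG) or a CCAAT box (CCAAT), searched on both strands.
Col3a1, chr1:45311288-45311537, plus strand: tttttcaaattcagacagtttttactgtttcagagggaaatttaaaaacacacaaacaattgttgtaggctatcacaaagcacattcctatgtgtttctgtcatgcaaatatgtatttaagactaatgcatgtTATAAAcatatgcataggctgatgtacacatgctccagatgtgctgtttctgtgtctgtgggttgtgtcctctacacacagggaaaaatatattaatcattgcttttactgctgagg
Col6a3, chr1:90843972-90844221, minus strand: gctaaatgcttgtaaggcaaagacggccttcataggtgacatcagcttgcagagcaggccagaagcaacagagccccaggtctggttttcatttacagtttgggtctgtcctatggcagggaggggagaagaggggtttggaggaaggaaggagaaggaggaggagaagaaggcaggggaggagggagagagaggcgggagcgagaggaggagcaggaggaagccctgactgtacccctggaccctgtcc
Col4a6, chrX:141474077-141474326, minus strand: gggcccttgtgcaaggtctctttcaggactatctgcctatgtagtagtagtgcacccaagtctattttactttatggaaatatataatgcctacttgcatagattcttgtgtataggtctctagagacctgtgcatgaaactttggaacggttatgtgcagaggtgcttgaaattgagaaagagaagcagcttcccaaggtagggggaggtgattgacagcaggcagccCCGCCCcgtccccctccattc
Col7a1, chr9:108953336-108953585, plus strand: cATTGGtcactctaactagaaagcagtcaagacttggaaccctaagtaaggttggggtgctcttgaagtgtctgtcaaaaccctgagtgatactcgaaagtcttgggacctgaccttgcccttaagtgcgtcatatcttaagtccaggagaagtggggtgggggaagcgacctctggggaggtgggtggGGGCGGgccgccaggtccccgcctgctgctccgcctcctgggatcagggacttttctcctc
The Col3a1 window held a TATAAA from 117 to 112 bases before the start and neither other motif, and the Col6a3 window held none of the 3. The Col4a6 window held CCGCCC, the GC box on the other strand, at 21 to 16 bases, and the Col7a1 window held ATTGG, the CCAAT box on the other strand, at 249 to 245 bases and GGGCGG at 61 to 56 bases. GC content was 35.2% for Col3a1, 57.2% for Col6a3, 47.6% for Col4a6 and 56.4% for Col7a1. The 22 genes had 24 windows, since Col6a2 and Col18a1 each had a second start. Of these windows 17 held a GC box, 8 a CCAAT box and 2, those of Col3a1 and Col11a2, a TATA box. The same motifs were in 32.7%, 33.8% and 12.4% of the 32851 promoter windows of the table. By class a CCAAT box was in 2 of 6 fibrillar, 3 of 4 type IV, 0 of 4 type VI, 1 of 2 FACIT and 2 of 6 other genes. These numbers are too small to compare the classes. These letter matches are a description of the windows and no measure of binding.

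Fibrillar collagens form the banded fibrils of the dermis, with types I and III as their bulk and type V as the chain that starts and thins the fibril. Of the 8 fibrillar genes, Col1a1, Col1a2, Col3a1, Col5a1 and Col5a2 were higher in A5-positive cells of both genotypes. Their folds were 15.5 to 79.5 in RORγt-deficient and 8.36 to 39.6 in wild-type mice. Col5a3, Col11a2 and Col27a1 were not called in either genotype. The class median was 4.02 on the log2 scale in RORγt-deficient and 3.57 in wild-type mice.

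Col3a1 (ENSMUSG00000026043.18, chromosome 1, 45311538 to 45349706, GRCm38, plus strand) encodes the chain of type III collagen, which is abundant in young wound tissue. It had 5900, 4260 and 6740 CPM (scaled by TMM, as all levels of single genes below) in RORγt-deficient A5-positive cells against 166, 20.2 and 25.8 CPM in A5-negative cells. In wild-type mice it had 1560, 2580 and 3540 CPM in A5-positive against 58.9, 29.9 and 105 CPM in A5-negative cells. The lowest A5-positive library lay far above the highest A5-negative one in each genotype. The change was 6.31 ± 0.86 (SE, adjusted p = 0.00108) in RORγt-deficient and 5.31 ± 0.82 (adjusted p = 0.0052) in wild-type mice.

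Col1a1 (chromosome 11, 94936224 to 94953042) and Col1a2 (chromosome 6, 4504814 to 4541544), both on the plus strand, encode the chains of type I collagen, the main protein of the dermis. Col1a1 had 4280, 2620 and 4430 CPM in RORγt-deficient A5-positive against 203, 15.9 and 20.9 CPM in A5-negative cells, and 1060, 1640 and 2160 CPM in wild-type A5-positive against 54.3, 21.4 and 64.8 CPM in A5-negative cells. Its change was 5.56 ± 0.93 (adjusted p = 0.0043) in RORγt-deficient and 5.12 ± 0.92 (adjusted p = 0.0109) in wild-type mice. Col1a2 had 2680, 1570 and 3030 CPM in RORγt-deficient A5-positive against 101, 10 and 13.7 CPM in A5-negative cells, and 666, 911 and 1440 CPM in wild-type A5-positive against 35.0, 11.7 and 41.6 CPM in A5-negative cells. The groups did not overlap for either gene, and the changes of Col1a2 were 5.87 ± 0.90 (adjusted p = 0.00237) and 5.09 ± 0.87 (adjusted p = 0.00822). The ratio of Col1a1 to Col1a2 counts varied little, from 1.46 to 1.66 in RORγt-deficient A5-positive, 1.53 to 2.02 in RORγt-deficient A5-negative, 1.5 to 1.80 in wild-type A5-positive and 1.55 to 1.82 in wild-type A5-negative libraries. In wild-type mice Col1a1 was no longer called when A5-negative library 2 (4.75, adjusted p = 0.0523) or 3 (5.40, adjusted p = 0.0583) was left out, while with the block it was called in all 6 such fits (highest adjusted p = 0.0186).

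The type V genes differed less than types I and III. Col5a1 had 152, 95.9 and 199 CPM in RORγt-deficient A5-positive against 18.6, 4.18 and 5.55 CPM in A5-negative cells, with a change of 3.96 ± 0.53 (adjusted p = 0.000881). Wild-type A5-positive cells had 42.6, 73.3 and 77.0 CPM against 6.13, 5.62 and 8.59 CPM in A5-negative cells, with a change of 3.25 ± 0.52 (adjusted p = 0.00593). Col5a2 changed by 4.08 ± 0.58 in RORγt-deficient and 3.06 ± 0.56 in wild-type mice, and in wild-type mice the call did not survive leaving out A5-negative library 2 (2.82, adjusted p = 0.0604) or 3 (3.30, adjusted p = 0.0535), though with the block it did in all 6 such fits (highest adjusted p = 0.0241). Col5a3 had 49.2, 40.0 and 114 CPM in RORγt-deficient A5-positive against 21.1, 0.430 and 0.444 CPM in A5-negative cells, and 18.9, 21.4 and 22.6 CPM in wild-type A5-positive against 0.466, 0.621 and 3.28 CPM in A5-negative cells. Its groups did not overlap, but the changes of 3.17 ± 1.17 (adjusted p = 0.142) and 3.89 ± 1.26 (adjusted p = 0.114) were not called. Col5a3 reached 1 CPM in 8 libraries, fewer than 3 of them A5-negative. It therefore entered the list only with the fraction where it is higher. With the block the wild-type change of Col5a3 was called (4.13 ± 1.21, adjusted p = 0.044).

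RORγt-deficient A5-negative library 1 decided much of the size of these changes. Its fibrillar genes summed to 522 CPM of the total counts, against 54.5 and 71.1 CPM in libraries 2 and 3 of the group. Without it the RORγt-deficient change was 7.65 for Col1a1, 7.65 for Col1a2, 7.91 for Col3a1, 4.91 for Col5a1 and 5.12 for Col5a2, all still called, and Col5a3 became called at 7.24 ± 0.94 (adjusted p = 0.00159). Its Col1a1 count was 24.3 times that of Dcn, the gene of the fibril proteoglycan decorin, against 3.68 and 2.44 times in libraries 2 and 3. In A5-positive cells this ratio was 3.47 to 4.48 in RORγt-deficient and 4.23 to 4.45 in wild-type libraries. In wild-type A5-negative libraries 1 to 3 it was 2.02, 3.01 and 8.76.

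Col11a2 and Col27a1, which encode minor fibrillar chains best known from cartilage, were near the level rule. Col11a2 averaged 0.707 ± 0.377 CPM in RORγt-deficient A5-positive and 1.75 ± 0.660 CPM in A5-negative cells (SD, n = 3 each), with groups that did not overlap and no call (-1.30 ± 0.88, adjusted p = 0.399). Col27a1 had group means of 0.526 to 1.16 CPM.

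Type VI collagen forms beaded microfilaments between fibres and cells. They are built from the products of Col6a1, Col6a2 and Col6a3 or another chain such as that of Col6a6. Col6a1 and Col6a2 lie near each other on chromosome 10 (76708792 to 76726168 and 76595762 to 76623630) and Col6a3 on chromosome 1 (90765923 to 90843971), all on the minus strand. The 3 main chains were higher in A5-positive cells of both genotypes, with folds of 32.4 to 86.4 in RORγt-deficient and 23.0 to 51.9 in wild-type mice. Col6a1 had 400, 262 and 306 CPM in RORγt-deficient A5-positive against 14.8, 10.6 and 4.16 CPM in A5-negative cells, a change of 5.02 ± 0.45 (adjusted p = 5.61e-05). In wild-type mice it had 83.3, 157 and 176 CPM in A5-positive against 6.04, 7.12 and 4.91 CPM in A5-negative cells, a change of 4.53 ± 0.44 (adjusted p = 0.000258). The A5-positive and A5-negative libraries did not overlap in either genotype.

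Col6a2 had 410, 226 and 303 CPM in RORγt-deficient A5-positive against 7.24, 1.69 and 1.49 CPM in A5-negative cells, and 76.3, 136 and 202 CPM in wild-type A5-positive against 4.18, 3.87 and 3.63 CPM in A5-negative cells. Its change was 6.43 ± 0.63 (adjusted p = 0.000106) in RORγt-deficient and 5.15 ± 0.59 (adjusted p = 0.000768) in wild-type mice. Col6a3 had 354, 263 and 299 CPM in RORγt-deficient A5-positive against 14.6, 1.35 and 1.43 CPM in A5-negative cells, and 75.0, 165 and 161 CPM in wild-type A5-positive against 2.06, 2.94 and 2.77 CPM in A5-negative cells. Library 1 was again the highest of the RORγt-deficient A5-negative libraries for all 3 chains. Without it the change was 5.43 for Col6a1, 7.59 for Col6a2 and 7.76 for Col6a3, against 5.02, 6.43 and 5.67 with it. Col6a6 was rare, at 1.74 ± 0.361 CPM in RORγt-deficient A5-positive and 0.353 ± 0.246 CPM in A5-negative cells, and 0.674 ± 0.483 CPM in wild-type A5-positive and 0.116 ± 0.120 CPM in A5-negative cells. It reached 1 CPM in 4 libraries, all A5-positive, and so entered the list through the fraction where it is higher. Its changes were 2.30 ± 0.71 (adjusted p = 0.0867) in RORγt-deficient and 2.57 ± 0.78 (adjusted p = 0.0961) in wild-type mice, and 2.61 (adjusted p = 0.0129) and 2.60 (adjusted p = 0.0249) with the block.

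The balance of the 3 type VI chains also differed. The ratio of Col6a3 to Col6a1 counts was 0.883, 1.01 and 0.974 in RORγt-deficient A5-positive against 0.983, 0.127 and 0.344 in A5-negative libraries. In wild-type mice it was 0.900, 1.05 and 0.912 in A5-positive against 0.341, 0.413 and 0.564 in A5-negative libraries. Only RORγt-deficient A5-negative library 1 had a ratio within the A5-positive range. The ratio of Col6a1 to Col6a2 was 0.976 to 1.16 in RORγt-deficient A5-positive against 2.05 to 6.29 in A5-negative libraries, and 0.871 to 1.16 in wild-type A5-positive against 1.35 to 1.84 in A5-negative libraries. These ratios are not scaled by gene length and were not tested.

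Type IV collagen forms the sheet-like network of basement membranes, from pairs of chains whose genes lie head to head on a chromosome. Col4a1 and Col4a2, the pair found in nearly all basement membranes, were 2.10- to 2.43-fold higher in A5-positive cells of both genotypes. Col4a5 and Col4a6, the pair that the epidermal basement membrane also contains, were not called in either. Col4a1 had 130, 129 and 154 CPM in RORγt-deficient A5-positive against 68.1, 65.4 and 51.8 CPM in A5-negative cells, and 114, 102 and 86.9 CPM in wild-type A5-positive against 39.2, 52.2 and 53.0 CPM in A5-negative cells. Its groups did not overlap, and the changes were 1.16 ± 0.16 (adjusted p = 0.00131) and 1.07 ± 0.16 (adjusted p = 0.00477). Leaving out each library in turn gave 1.03 to 1.21 in RORγt-deficient and 0.94 to 1.13 in wild-type mice, all called.

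Col4a2 had 66.1, 64.5 and 91.0 CPM in RORγt-deficient A5-positive against 40.3, 35.2 and 24.0 CPM in A5-negative cells, and 69.9, 59.4 and 45.6 CPM in wild-type A5-positive against 23.2, 24.7 and 24.0 CPM in A5-negative cells. These groups too were apart, with changes of 1.15 ± 0.21 (adjusted p = 0.00744) and 1.28 ± 0.21 (adjusted p = 0.00731). The starts of Col4a1 and Col4a2 are 21 bases apart on chromosome 8, and their exons share 22 bases. How reads on those bases were assigned is not stated.

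Col4a5 had 42.6, 60.4 and 38.0 CPM in RORγt-deficient A5-positive against 63.5, 54.4 and 42.0 CPM in A5-negative cells, and 29.2, 48.9 and 41.9 CPM in wild-type A5-positive against 42.5, 60.0 and 41.9 CPM in A5-negative cells. The groups overlapped, and its change was -0.18 ± 0.24 in RORγt-deficient and -0.27 ± 0.24 in wild-type mice (adjusted p = 0.683 and 0.546). Col4a6 averaged 33.3 ± 12.7 CPM in RORγt-deficient A5-positive and 43.7 ± 13.6 CPM in A5-negative cells, and 23.1 ± 6.68 CPM in wild-type A5-positive and 33.7 ± 7.57 CPM in A5-negative cells. It was lower in the A5-positive library of each of the 3 numbers in both genotypes, but its changes of -0.40 ± 0.31 and -0.54 ± 0.31 were not called (adjusted p = 0.476 and 0.345). The starts of Col4a5 and Col4a6 lie 1343 bases apart on the X chromosome.

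The counts of Col4a1 and Col4a2 together, divided by those of Col4a5 and Col4a6, were 2.86, 1.79 and 3.83 in RORγt-deficient A5-positive against 0.940, 0.953 and 1.08 in A5-negative libraries. In wild-type mice they were 4.03, 2.06 and 2.03 in A5-positive against 0.847, 0.752 and 1.10 in A5-negative libraries. The A5-positive and A5-negative libraries did not overlap. Col4a3, a chain of the kidney and lung network, stayed at group means of 0.939 to 1.22 CPM. It shares 5.65% of its exon bases with C430014B12Rik on the other strand, so part of its reads may be of that gene.

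**Figure D3:**
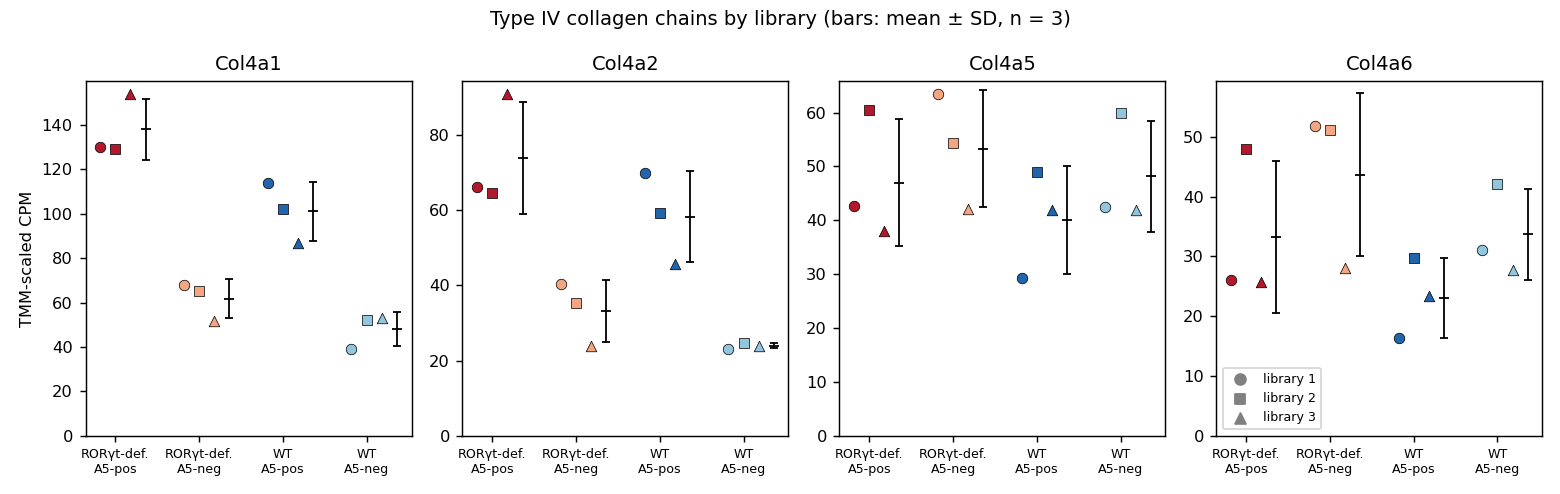
TMM-scaled CPM of Col4a1, Col4a2, Col4a5 and Col4a6 in each library (symbols as in the plot of class sums), with the mean ± SD of 3 libraries beside each group. For Col4a1 and Col4a2 every A5-positive library lies above the A5-negative libraries of its genotype, while for Col4a5 and Col4a6 the groups overlap.

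FACIT collagens sit on the surface of fibrils and link them to their surroundings, and as a class their median change was 0.44 in RORγt-deficient and -0.09 in wild-type mice. Col16a1, a minor chain of the dermal-epidermal junction zone, was the most abundant, with 274, 246 and 177 CPM in RORγt-deficient A5-positive against 232, 174 and 108 CPM in A5-negative cells. Wild-type A5-positive cells had 148, 232 and 149 CPM against 129, 146 and 84.3 CPM in A5-negative cells. Its changes of 0.44 ± 0.30 and 0.56 ± 0.30 were not called (adjusted p = 0.401 and 0.308), though each A5-positive library was above the A5-negative library of the same number.

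Col12a1, a partner of type I fibrils, had 26.9, 40.7 and 36.2 CPM in RORγt-deficient A5-positive against 21.7, 20.1 and 13.9 CPM in A5-negative cells, and 46.3, 45.8 and 22.4 CPM in wild-type A5-positive against 9.88, 24.4 and 9.79 CPM in A5-negative cells. The wild-type groups overlapped by 1 library. Its changes of 0.89 ± 0.37 and 1.38 ± 0.38 (adjusted p = 0.188 and 0.0685) were not called, and with the block they were, at 0.92 (adjusted p = 0.0466) and 1.43 (adjusted p = 0.0108). Without wild-type A5-negative library 2 the wild-type change was 1.92 (adjusted p = 0.0179), and without A5-positive library 3 it was 1.61 (adjusted p = 0.0394).

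Col14a1, another fibril partner of the dermis, had 3.23, 2.83 and 13.2 CPM in RORγt-deficient A5-positive against 0.434, 2.03 and 0.794 CPM in A5-negative cells. Wild-type A5-positive cells had 1.09, 1.14 and 0.236 CPM against 0.430, 0.876 and 1.37 CPM in A5-negative cells. The RORγt-deficient groups did not overlap and the wild-type groups did, with changes of 2.58 ± 0.78 (adjusted p = 0.0843) and -0.09 ± 0.78 (adjusted p = 0.96). The block gave 2.55 (adjusted p = 0.0424) in RORγt-deficient mice, and without A5-positive library 3 the change was 1.5 (adjusted p = 0.349). Col14a1 reached 1 CPM in 7 libraries, fewer than 3 of them A5-negative, so it entered the list only with A5-positive libraries.

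Col20a1 reached 1 CPM in the 3 RORγt-deficient A5-negative libraries and in no other, so the values that put it in the list are those of the group where it is higher, and what follows is a description. It had 0.551, 0.579 and 0.183 CPM in RORγt-deficient A5-positive against 2.66, 1.80 and 1.78 CPM in A5-negative cells. In wild-type mice it had 0.105, 0.060 and 0.269 CPM in A5-positive against 0.592, 0.876 and 0.257 CPM in A5-negative cells. The groups were apart in RORγt-deficient mice and overlapped in wild-type mice, and the fit over all genes gave changes of -2.24 ± 0.59 (adjusted p = 0.0475) and -2.02 ± 0.65 (adjusted p = 0.113). The call rests on 7 to 29 counts in the RORγt-deficient A5-positive libraries and was lost on leaving out any library but A5-positive library 2 (adjusted p of 0.0962 to 0.165), or with the block 4 of the 6. The gene shares 1.54% of its exon bases on the same strand with BX649560.1. Col9a3, a cartilage chain that shares 6.07% of its exon bases with Tcfl5, had group means of 1.33 to 1.79 CPM.

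Among the remaining types, Col18a1 was one of the most abundant collagens of A5-negative cells, beside Col7a1. It lies on chromosome 10 (77052178 to 77166548, GRCm38, minus strand) and encodes a basement membrane collagen whose end fragment is known as endostatin. It had 372, 344 and 368 CPM in RORγt-deficient A5-positive against 216, 192 and 155 CPM in A5-negative cells, and 509, 522 and 323 CPM in wild-type A5-positive against 161, 248 and 145 CPM in A5-negative cells. The groups were apart in both genotypes, with changes of 0.94 ± 0.23 (adjusted p = 0.032) and 1.29 ± 0.23 (adjusted p = 0.0106). The RORγt-deficient call was lost on leaving out any library but A5-positive library 2 (0.80 to 1.03), and the wild-type call without A5-negative library 3 (1.11, adjusted p = 0.0656). With the block both calls held in all 6 such fits (highest adjusted p = 0.0266 in RORγt-deficient and 0.0149 in wild-type mice).

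Its relative Col15a1, a collagen of vessel and muscle basement membranes, was much rarer and differed more. It reached 1 CPM in 8 libraries, fewer than 3 of them A5-negative, so it entered the list only with the fraction where it is higher. It had 15.9, 6.88 and 8.99 CPM in RORγt-deficient A5-positive against 1.49, 0.0573 and 0.190 CPM in A5-negative cells, a change of 4.06 ± 0.87 (adjusted p = 0.0174). In wild-type mice it had 9.43, 4.92 and 3.94 CPM in A5-positive against 0.968, 0.650 and 0.200 CPM in A5-negative cells, a change of 3.30 ± 0.85 (adjusted p = 0.0583, and 0.00402 with the block). The RORγt-deficient call was lost without A5-positive library 1 (3.64, adjusted p = 0.0689) or A5-negative library 3 (3.67, adjusted p = 0.0752), with the block it held in all 6 such fits (highest adjusted p = 0.00457), and the change was 6.39 without A5-negative library 1.

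Col7a1, the chain of the anchoring fibrils that keratinocytes make to tie the basement membrane to the dermis, did not follow the fibrillar genes. It had 167, 232 and 132 CPM in RORγt-deficient A5-positive against 235, 194 and 119 CPM in A5-negative cells, and 179, 304 and 129 CPM in wild-type A5-positive against 100, 240 and 112 CPM in A5-negative cells. The groups overlapped, and its changes were -0.05 ± 0.39 and 0.44 ± 0.39 (adjusted p = 0.956 and 0.548). Col23a1, a transmembrane collagen of keratinocytes, had 124, 114 and 94.1 CPM in RORγt-deficient A5-positive against 115, 86.7 and 64.7 CPM in A5-negative cells, and 79.3, 107 and 73.3 CPM in wild-type A5-positive against 75.5, 90.9 and 73.2 CPM in A5-negative cells, with no call. Col8a1 and Col8a2, short chains that form a network best known under endothelia of the eye, had group means of 6.5 to 9.54 and 1.71 to 3.16 CPM. The Col8a2 change in RORγt-deficient mice was 0.89 ± 0.27 (adjusted p = 0.084) and was called with the block (0.90, adjusted p = 0.0286).

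Per kilobase of exon, the order of the levels differed between the fractions. In RORγt-deficient A5-positive cells Col1a1 (575 ± 153 CPM per kb) and Col3a1 (574 ± 128) led without differing beyond their spread, followed by Col1a2 (195 ± 61.2), Col6a1 (73.7 ± 16.2) and Col18a1 (51.5 ± 2.19). In RORγt-deficient A5-negative cells Col18a1 (26.8 ± 4.36 CPM per kb), Col16a1 (25.4 ± 9.22), Col7a1 (17.7 ± 5.73) and Col23a1 (15.5 ± 4.40) led, each within the spread of its neighbour. In wild-type A5-positive cells Col3a1 (261 ± 101 CPM per kb) and Col1a1 (247 ± 83.7) were again close, ahead of Col1a2 (80.9 ± 31.8) and Col18a1 (64.3 ± 15.9). Wild-type A5-negative cells had the same leading 4 genes as RORγt-deficient ones, Col18a1 (26.3 ± 7.94 CPM per kb), Col16a1 (17.7 ± 4.73), Col7a1 (14.6 ± 7.53) and Col23a1 (13.9 ± 1.67).

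The comparison of genotypes called no collagen. In A5-positive cells, RORγt-deficient against wild type, 0 of 28 were called by edgeR (0.006% of all genes tested), 8 had an unadjusted p under 0.05, and 24 had a positive change. The block likewise called 0 collagens, against 4.02% of all genes (2.26% higher and 1.76% lower). The median change was 0.67, against 0.00 over all genes, and 14 collagens were higher without overlap (9.04% of all genes) and none lower (9.01%). DESeq2 called Col14a1 and Col6a1 higher in this comparison. The share of all genes that DESeq2 called was not computed, so these calls cannot be read against it.

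By class the median change between RORγt-deficient and wild-type A5-positive cells was 1.21 for fibrillar, 1.20 for type VI, 0.40 for FACIT, 0.36 for type IV and 0.34 for other genes. Col1a1 had 4280, 2620 and 4430 CPM in RORγt-deficient against 1060, 1640 and 2160 CPM in wild-type A5-positive cells, groups that did not overlap, with a change of 1.22 ± 0.78 (adjusted p = 0.466). Col6a1 had the smallest p of the type VI genes, with a change of 1.22 ± 0.38 (adjusted p = 0.209, and 0.0885 with the block). Col14a1 had the smallest p of all 28 (2.94 ± 0.80, adjusted p = 0.187, and 0.0729 with the block), with RORγt-deficient A5-positive library 3 alone at 13.2 CPM. Of the 4 collagens that led in A5-negative cells, Col7a1 and Col18a1 had changes of -0.21 ± 0.39 and -0.32 ± 0.23, and Col16a1 and Col23a1 of 0.40 ± 0.30 and 0.35 ± 0.21. The 15 fibroblast markers moved beside the fibrillar and type VI genes: 14 had a positive change, with a median of 1.09, and their summed CPM was 3090, 1760 and 2690 in RORγt-deficient against 1030, 1270 and 1610 in wild-type A5-positive cells. With the mean log2 CPM of these markers in the fit, 0 collagens were called in this comparison too. None was called without the markers, so this count does not bear on their part.

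**Figure D4:**
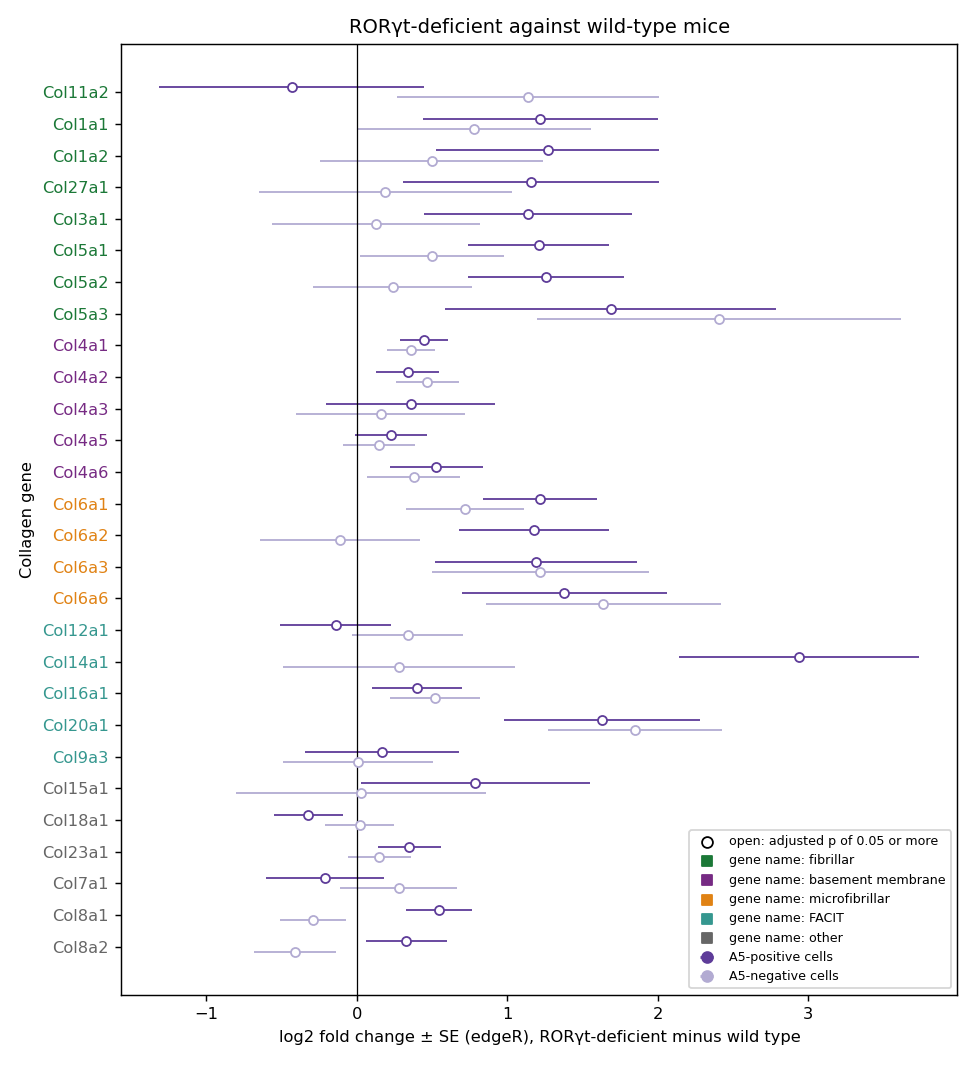
Log2 fold change ± SE of each collagen gene between RORγt-deficient and wild-type mice, in A5-positive (dark) and A5-negative (pale) cells; all points are open because none had an adjusted p under 0.05 (edgeR). The fibrillar and type VI medians in A5-positive cells are 1.21 and 1.20, and Col14a1 lies at 2.94.

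In A5-negative cells, RORγt-deficient against wild type, edgeR also called 0 collagens (0.006% of all genes), with 3 at an unadjusted p under 0.05, and DESeq2 called none. Only Col20a1 had groups that were apart there, in the libraries that put it in the list, with 2.66, 1.80 and 1.78 CPM in RORγt-deficient against 0.592, 0.876 and 0.257 CPM in wild-type cells (7.33% of all genes were higher without overlap and 8.26% lower). For the 3 most abundant fibrillar genes only number 1, with the unusual library, had a positive difference. Over numbers 1 to 3 it was 1.89, -0.41 and -1.61 for Col1a1, 1.51, -0.22 and -1.57 for Col1a2, and 1.49, -0.56 and -2.01 for Col3a1 (log2 of CPM plus 0.5). The test of whether the A5 difference itself depended on genotype called 0 collagens (0% of all genes), with Col14a1 (2.66 ± 1.09) and Col8a1 (0.84 ± 0.32) at an unadjusted p under 0.05 and an adjusted p of 1 for both. With 3 libraries in each group, a p that misses the threshold does not show that the genotypes were alike.

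The genes of proteins that make, trim and hold collagen were counted alongside, to be read against the shares of all genes called higher in A5-positive cells, 4.56% in RORγt-deficient and 3.12% in wild-type mice (10.1% and 8.76% with the block). Of 18 tested genes for folding and modification of the chains, 7 were higher in A5-positive cells of RORγt-deficient and 5 of wild-type mice, and none was lower, with a median of 0.73 and 0.69 (11 and 9 higher with the block). Serpinh1, the collagen chaperone HSP47, had 406, 277 and 401 CPM in RORγt-deficient A5-positive against 125, 105 and 86.3 CPM in A5-negative cells, a change of 1.78 ± 0.18 (adjusted p = 0.000168). In wild-type mice its change was 1.26 ± 0.18 (adjusted p = 0.00353). The prolyl 3-hydroxylase genes P3h1 and P3h3 changed by 1.83 and 2.24 in RORγt-deficient and by 1.27 and 1.71 in wild-type mice, all called.

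Of 14 tested genes for procollagen trimming and crosslinking, 7 were higher in RORγt-deficient and 5 in wild-type A5-positive cells, with medians of 1.59 and 1.33 (9 and 8 higher with the block, and 1 lower in RORγt-deficient mice). Adamts2, which removes the amino end of procollagen, had 154, 82.2 and 140 CPM in RORγt-deficient A5-positive against 4.51, 1.49 and 3.30 CPM in A5-negative cells (5.31 ± 0.45, adjusted p = 4.35e-05). Pcolce and Pcolce2, which speed the removal of the carboxyl end, changed by 5.29 and 5.78 in RORγt-deficient and by 4.0 and 4.84 in wild-type mice, all called. Of 9 tested fibril proteoglycans 8 were higher in each genotype, with medians of 5.28 and 4.26. Dcn, Lum and Prelp of that list changed by 7.08, 7.10 and 6.17 in RORγt-deficient and by 4.76, 4.95 and 4.26 in wild-type mice.

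Of 10 tested collagen receptors, 2 were higher in RORγt-deficient and 1 in wild-type A5-positive cells (3 and 2 with the block), with medians of -0.18 and 0.08. Mrc2, an uptake receptor for collagen fragments, changed by 1.75 ± 0.26 (adjusted p = 0.00205) and 1.69 ± 0.26 (adjusted p = 0.0052). Itga11, a fibrillar collagen integrin of fibroblasts, changed by 3.96 ± 0.63 (adjusted p = 0.00302) in RORγt-deficient and 2.28 ± 0.58 (adjusted p = 0.0567, and 0.0198 with the block) in wild-type mice. Of 18 basement membrane partners of type IV collagen, 6 were higher in RORγt-deficient and 4 in wild-type A5-positive cells (6 and 8 with the block), among them the laminin genes Lamc3 (7.13 and 4.07), Lama2 (4.78 and 4.01) and Lamb1 (1.54 and 1.02). The medians of that list, 0.46 and 0.57, lay below those of the fibrillar and type VI classes.

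Fibroblast markers without collagens moved with the fibrillar and type VI genes across the sort. Of 15 markers 12 were higher in A5-positive cells of each genotype, against 4.56% of all genes in RORγt-deficient and 3.12% in wild-type mice. The marker medians were 5.01 in RORγt-deficient and 4.76 in wild-type mice, and no marker was at 0 in all libraries. Their summed CPM was 3090, 1760 and 2690 in RORγt-deficient A5-positive against 206, 64.9 and 157 in A5-negative libraries, and 1030, 1270 and 1610 in wild-type A5-positive against 372, 139 and 163 in A5-negative libraries. Pdgfra, which defines dermal fibroblasts, had 49.5, 33.4 and 42.2 CPM in RORγt-deficient A5-positive against 1.59, 1.12 and 1.11 CPM in A5-negative cells, and 13.2, 19.9 and 25.6 CPM in wild-type A5-positive against 0.860, 0.734 and 0.485 CPM in A5-negative cells. In bulk libraries, fewer cells of a type and less RNA per cell cannot be told apart. The fibrillar sum divided by that of Pdgfra, Lum and Dcn was 7.37 to 10.1 in RORγt-deficient A5-positive and 8.84 to 9.90 in wild-type A5-positive libraries. In RORγt-deficient A5-negative libraries 1 to 3 it was 41.7, 8.42 and 5.03, and in wild-type ones 4.37, 6.89 and 22.0. Divided by all 15 markers, the fibrillar sum did differ between the fractions. That ratio was 4.26 to 5.54 in RORγt-deficient A5-positive against 0.452 to 2.54 in A5-negative libraries. In wild-type mice it was 3.27 to 4.61 against 0.474 to 1.44, and neither ratio was tested.

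A fit that also held the mean log2 CPM of the 15 fibroblast markers called 0 collagens in either A5 comparison, with or without the block. That mean was 4.50 to 6.12 in A5-positive and -0.083 to 1.73 in A5-negative libraries, so it nearly repeated the A5 groups. The fit therefore cannot separate the markers from the sort, and no conclusion is drawn from its lost calls or changed signs. The Col4a1 change was 1.53 ± 0.61 in RORγt-deficient and 1.37 ± 0.50 in wild-type mice in that fit, against 1.16 ± 0.16 and 1.07 ± 0.16 without the markers. Col1a1 was at -2.56 ± 1.22 and -2.0 ± 1.06, against 5.56 ± 0.93 and 5.12 ± 0.92 without them.

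**Figure D5:**
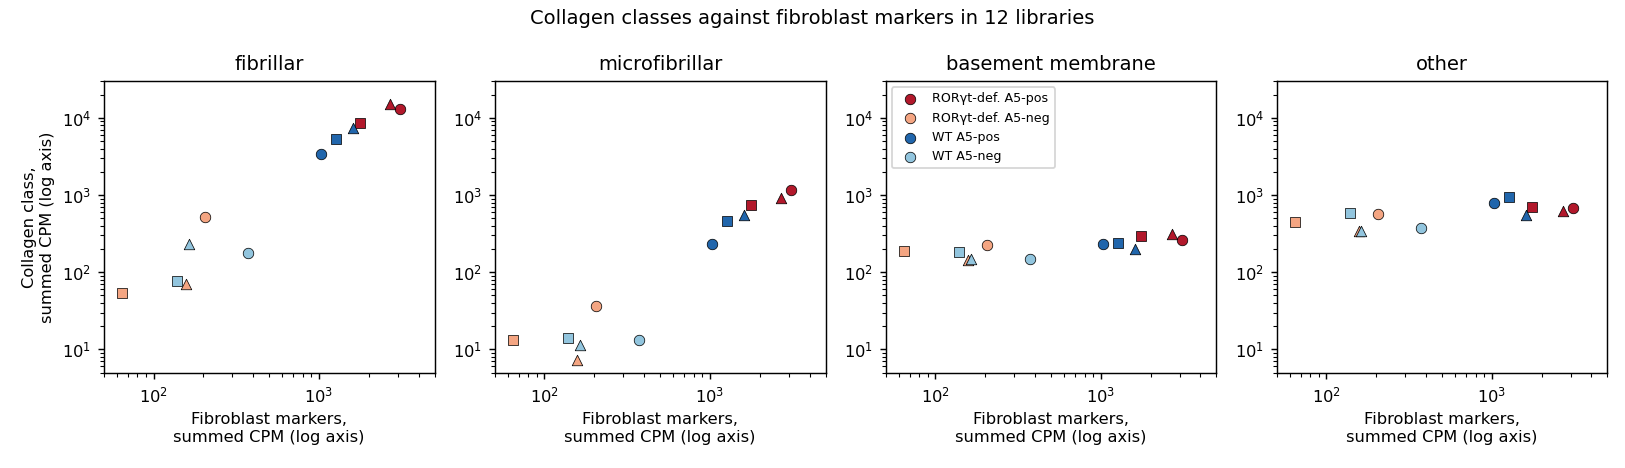
Summed CPM of 4 collagen classes against the summed CPM of 15 fibroblast markers in the 12 libraries (both axes log; colours give the group and symbols the library number). Fibrillar and type VI sums are high where the markers are high, from 1030 CPM upward. Type IV sums span less but are also higher there. They were 265 to 314 CPM in RORγt-deficient A5-positive against 146 to 222 CPM in A5-negative libraries, and 201 to 242 against 148 to 181 CPM in wild-type ones.

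Other cell types moved less evenly with the sort. Endothelial markers summed to 53.2 CPM in wild-type A5-positive library 1 and to 2.60 to 16 CPM in the other 11 libraries, and that library had the highest wild-type Col4a1, Col4a2 and Col15a1. Without it the wild-type changes were 0.97 for Col4a1 and 1.12 for Col4a2, both still called, and 1.18 for Col18a1, still called. Col15a1, not called with or without it, was at 2.82, and with the block it was called with it and without it (3.59, adjusted p = 0.0078). Of 6 tested endothelial markers, 6 had a positive A5 change in wild-type (median 1.45) and 3 in RORγt-deficient mice (median -0.21). None was called. Egfl7 was higher without overlap in wild-type (1.53 ± 0.49) and RORγt-deficient mice (1.50 ± 0.50), as were 15.9% and 14.3% of all genes. Macrophage markers summed to 84.3 to 234 CPM in RORγt-deficient A5-positive against 89.1 to 593 CPM in A5-negative libraries, and to 99.4 to 164 CPM in wild-type A5-positive against 89.9 to 1460 CPM in A5-negative libraries. Pericyte and smooth muscle markers summed to 157 to 215 CPM in all 12 libraries, but single markers varied. In RORγt-deficient mice 7 of 8 had a positive A5 change (median 0.72), Des (3.51 ± 1.36) and Acta2 (0.86 ± 0.50) without overlap. Only Notch3 was called, lower (-0.93 ± 0.20, adjusted p = 0.0183, against 0.965% of all genes). In wild-type mice 3 of 8 were positive (median -0.12) and 0 were called (1 lower with the block, against 5.59% of all genes). The part of these cell types in the collagen results was not tested beyond those values.

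The 15 genes below the level rule were Col2a1, Col11a1 and Col24a1 of the fibrillar class, Col4a4, Col6a4, Col6a5, the FACIT genes Col9a1, Col9a2, Col19a1 and Col22a1, and Col10a1, Col13a1, Col25a1, Col26a1 and Col28a1. Col22a1 had no count in any library and Col9a1 had 2 counts in all. The highest level among the 15 was 1.57 CPM of the total counts, for Col11a1 in 1 library.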

How the data were processed

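RNA of sorted keratinocytes was sequenced in 12 libraries made with SMART-Seq v4 and ThruPLEX, per the labels' protocols. Reads passed through bcl2fastq, Trimmomatic 0.36, STAR and featureCounts on GRCm38 (mm10), per the submitters' processing notes. The annotation release, strand setting and treatment of reads with several matches are not given here by any source used. The deposited values are raw counts per gene symbol, not normalized by the authors. Here 26 rows whose symbols a spreadsheet had turned into dates (0.110% to 0.128% of the counts) were left out, and positions and exon lengths came from GENCODE M21.

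Counts were fitted with edgeR 4.0.16 (R 4.3.3): filterByExpr by group, which kept 16677 genes, TMM normalization (factors from 0.919 to 1.08), 1 model of 4 groups, the quasi-likelihood test, and Benjamini-Hochberg adjustment over all genes within each of 5 comparisons, at 0.05. The fits were tested on simulated counts drawn without an effect of the library number. That test does not cover libraries that deviate together by number. Changes are log2 fold changes ± SE. Depth was 29259516 to 74474252 counts. No molecular identifiers were named, so counts are of reads and not of molecules.

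Libraries of the same number in the labels deviated together (18 pairs, r from 0.153 to 0.722 over 9071 genes, against a median of -0.24 for 36 pairs of different numbers), so the numbers pair the libraries. The value with the number as a block stands beside each result whose call it changes or whose count it moves by more than 1.5 times. Alternatives were RLE size factors, DESeq2 1.42.0, other filters, the block, the 6 compared libraries alone, a fibroblast marker covariate and leaving out each library. Values in every library are given for the 3 most abundant genes of each class, for those with the smallest p, for falls, and for some others chosen after their values were seen (Col5a3, Col15a1 and Col20a1 in wild-type mice among them). From each partner list the 3 genes with the smallest p are named. The genes and lists were chosen with earlier results of these data known. A check of the genotype from the counts is not reported here.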

Additional observations from a re-analysis of the deposited data

Results flagged for a closer look

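Col8a1 and Col8a2, the chains of type VIII collagen, had opposite genotype directions in the sorted fractions. Col8a1 had 8.10, 11.2 and 9.36 CPM in RORγt-deficient against 6.04, 6.66 and 6.80 CPM in wild-type A5-positive cells, and 7.16, 5.21 and 7.84 CPM in RORγt-deficient against 9.48, 6.16 and 9.02 CPM in wild-type A5-negative cells. It was higher in the RORγt-deficient library of each of the 3 numbers in A5-positive cells and lower in each in A5-negative cells. Its difference between the fractions was 0.84 on the log2 scale (interaction test of edgeR, adjusted p = 1). Col8a2 showed the same pattern of directions, with 3.75, 2.83 and 2.90 CPM in RORγt-deficient against 2.77, 2.61 and 2.15 CPM in wild-type A5-positive cells and 1.66, 2.00 and 1.46 CPM in RORγt-deficient against 2.37, 2.74 and 1.71 CPM in wild-type A5-negative cells, and a difference of 0.74 (adjusted p = 1). Neither gene was called in a genotype comparison, and both were picked out by the directions in these 12 libraries.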

How the results depend on the processing

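The counts of collagens called higher in A5-positive cells, 12 in RORγt-deficient and 11 in wild-type mice, fell to 0 and 0 with the fibroblast marker covariate, which nearly repeats the A5 groups, and to 0 and 0 with the covariate and the replicate block. They were 16 and 15 with the replicate block alone, which changed no other call than those given beside the results (Col5a3, Col6a6, Col8a2, Col12a1, Col14a1 and Col15a1), and moved by less than 1.5 times under RLE factors, DESeq2, other filters and the compared libraries alone. Leaving out each library gave 10 to 13 in RORγt-deficient (12 to 15 with the block) and 8 to 12 in wild-type mice (12 to 14 with the block).

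All reversed directions came from the covariate fits, whose markers had median A5 differences of 5.01 in RORγt-deficient and 4.76 in wild-type mice. The covariate did not overlap between A5-positive and A5-negative libraries, so these fits cannot separate the markers from the sort. With the covariate the changes in RORγt-deficient mice were -2.56 for Col1a1, -2.03 for Col1a2, -0.55 for Col3a1, -0.66 for Col5a1, -0.74 for Col5a2, -0.31 for Col6a3 and -2.10 for Col15a1. With the covariate and block they were -3.68 for Col1a1, -2.62 for Col1a2, -1.92 for Col3a1, -2.08 for Col5a1, -1.63 for Col5a2, -0.58 for Col6a2 and -3.29 for Col6a3. In wild-type mice the covariate gave -2.0 for Col1a1, -1.70 for Col1a2, -0.68 for Col3a1, -0.68 for Col5a1, -0.98 for Col5a2, -5.30 for Col5a3 and -1.83 for Col15a1. With the block as well it gave -2.84 for Col1a1, -2.07 for Col1a2, -1.65 for Col3a1, -1.75 for Col5a1, -1.62 for Col5a2, -4.76 for Col5a3, -0.75 for Col6a2, -2.05 for Col6a3 and -0.06 for Col15a1. None of these was called.

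The 1 collagen called lower in RORγt-deficient mice, Col20a1, was not tested under the filter of CPM 5 in 3 libraries, which left 0, and was not called with the covariate (0) or the covariate and block (0). Leaving out each library gave 0 to 1, also with the block. In wild-type mice DESeq2 called 1 lower, Col20a1, against 0, and leaving out a library with the block gave 0 to 2 (Col20a1 and Col4a6 without A5-positive library 3). For the genotypes in A5-positive cells, no filter gave 1 call, Col14a1, and DESeq2 gave 2, against 0, and leaving out a library with the block gave 0 to 2 (Col20a1 and Col6a1 without wild-type A5-positive library 3). The cause of these changes was not tested, and the shares of all genes called in these fits were not computed. Of the genes called with the block, DESeq2 without it also called Col6a6 in both genotypes (adjusted p = 0.0188 in RORγt-deficient and 0.0221 in wild-type mice), Col8a2 and Col14a1 in RORγt-deficient mice (0.0142 and 0.00886) and Col5a3, Col12a1 and Col15a1 in wild-type mice (0.0383, 0.0103 and 0.00122). Col6a6 entered the list only through A5-positive libraries, and Col5a3, Col14a1 and Col15a1 would not have entered it on A5-negative libraries alone. The calls of these genes follow in part from that choice. The genotype counts in A5-negative cells and the interaction counts stayed at 0 under all alternatives run.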
